A study of Mus musculus with 20 samples.

Results

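The creatine kinase and ATP shuttle genes examined here are Ckm, Ckmt2, Ckb, Slc6a8, Slc25a4, Slc25a5 and Ak1, 7 genes chosen by symbol and taken from 2 deposited tables of normalised counts. All 7 were found in both tables, among 17808 genes listed at 6 weeks and 18657 at 6 months, and all 7 passed the filter on low values. RNA came from ventricular myocardium of 20 mice; the tissue label reads left ventricle. At 6 weeks of age there were 3 Sorbs2 knockout (KO) and 3 wild-type (WT) mice, none of them treated. At 6 months there were 4 KO mice that had received AAV9-Tnnt2-Sorbs2 on postnatal day 2 (KO+AAV), 5 untreated KO mice and 5 untreated WT mice. The vector carries Sorbs2 under the promoter of Tnnt2, the cardiac troponin T gene, so its product is directed to cardiomyocytes, and the KO+AAV mice are themselves Sorbs2 KO mice. The KO and WT mice had no injection and no control vector was given, so vector and injection cannot be told apart from Sorbs2. The labels do not describe the KO allele or the strain.

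Creatine kinases move a phosphate group between ATP and creatine, and in heart muscle they link the mitochondria, where ATP is made, to the myofibrils and ion pumps, where it is used. Creatine enters the cell through the transporter SLC6A8, ATP leaves the mitochondrial matrix through the ADP/ATP carriers, and adenylate kinase offers a parallel route for phosphate transfer by converting 2 ADP into ATP and AMP. Ckm encodes the cytosolic muscle form, Ckmt2 the mitochondrial form of striated muscle and Ckb the cytosolic brain form, which is also made in many non-muscle cells. Slc25a4 encodes ANT1, the main ADP/ATP carrier of heart and skeletal muscle, Slc25a5 encodes its more widely made relative ANT2, and Ak1 encodes the main cytosolic adenylate kinase of muscle.

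On GRCm38, RefSeq places Ckm at chr7:19411094-19421583, Ckmt2 at chr13:91853386-91876923, Ckb at chr12:111669355-111672338, Slc25a4 at chr8:46207168-46211062 and Ak1 at chr2:32621758-32635058. Slc6a8 (chrX:73673133-73682502) and Slc25a5 (chrX:36795597-36798808) are X-linked. In RefSeq's table of gene starts (GRCm38.p6), 6 of 7 members had an entry, and the 250 bases before each start were searched on both strands, with none of the matches overlapping. The motifs were the E-box core CAGCTG, which myogenic factors bind, the MCAT element CATTCC, the GC box GGGCGG, the box named after its letters TATAAA, and AAGGTCA, bound by oestrogen-related receptors. The muscle isoform, the mitochondrial isoform and the brain isoform of creatine kinase are shown, because the results turn on how differently they behaved; capitals mark the matches and each sequence runs 5′ to 3′ on the gene's strand.
Ckm, chr7:19410844-19411024, plus strand: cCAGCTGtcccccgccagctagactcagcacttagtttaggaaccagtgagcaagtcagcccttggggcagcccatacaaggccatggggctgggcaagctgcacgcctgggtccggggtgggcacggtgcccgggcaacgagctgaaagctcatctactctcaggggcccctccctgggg
Ckmt2, chr13:91876886-91877135, minus strand: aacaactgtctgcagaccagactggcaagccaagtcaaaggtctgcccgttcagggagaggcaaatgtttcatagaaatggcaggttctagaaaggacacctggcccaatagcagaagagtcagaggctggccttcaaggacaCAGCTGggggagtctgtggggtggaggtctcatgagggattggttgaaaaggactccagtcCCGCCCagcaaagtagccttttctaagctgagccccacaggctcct
Ckb, chr12:111672339-111672588, minus strand: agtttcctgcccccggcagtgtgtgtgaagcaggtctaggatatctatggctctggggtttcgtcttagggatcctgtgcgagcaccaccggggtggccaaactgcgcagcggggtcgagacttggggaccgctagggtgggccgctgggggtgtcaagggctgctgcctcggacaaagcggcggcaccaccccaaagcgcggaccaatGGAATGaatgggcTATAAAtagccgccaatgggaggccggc
For Ckm the last 69 of the 250 bases lie in an annotated exon and are not printed. CAGCTG occurred 249 bases before the Ckm start and 107 bases before the Ckmt2 start; 13% of 32851 promoter windows of that length hold it. Ckmt2 also held a GC box (32.7% of windows), and Ckb held CATTCC (12.6%, read here as GGAATG on the other strand) and TATAAA (12.4%). Of the members not printed, Slc25a5 held CATTCC and a GC box, and of 4 listed Ak1 starts 2 had CAGCTG and 1 had AAGGTCA (4.08% of windows) before them. These matches describe letters, and no binding was measured.

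Sorbs2 itself was lower in every KO library, at 276 to 365 normalised counts in KO against 1409 to 1990 in WT at 6 weeks. At 6 months it stood at 4696, 5753, 15690 and 17923 in KO+AAV, at 1648, 612, 593, 494 and 1755 in KO and at 4562 to 5398 in WT. Libraries KO 1 and KO 5 thus held more Sorbs2 RNA than the other KO libraries. Tests of the 7 genes and their ratios in comparisons with KO at 6 months are therefore also given without them. At 6 months normalised counts summed to between 11359135 and 12222476 in KO libraries and to between 12492381 and 13670340 in WT libraries. Every KO total was thus below every WT total. In KO+AAV libraries the sums were 12024143 to 13041764. A 6-week library summed to between 6705133 and 8240294. By Xist and Ddx3y, none of 5 KO libraries at 6 months came from a female, against 2 of 4 KO+AAV and 2 of 5 WT libraries; at 6 weeks it was 1 of 3 in each group. Because each table was scaled on its own, levels are compared within an age only. The number of reads behind each value is unknown, and no counting interval is given.

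Per kilobase of exon, the 7 genes spanned a wide range of levels. In KO+AAV hearts at 6 months the order was Slc25a4 (69474 ± 12511 normalised counts per kb, SD, n = 4), Ckm (24221 ± 2543), Ckmt2 (22714 ± 2767), Ak1 (3611 ± 599), Slc25a5 (2995 ± 447), Slc6a8 (565 ± 131) and Ckb (532 ± 87.9). In KO hearts it was Slc25a4 (36186 ± 2067, SD, n = 5), Ckmt2 (14053 ± 1639), Ckm (10789 ± 3159), Ak1 (2701 ± 450), Slc25a5 (2634 ± 142), Slc6a8 (751 ± 127) and Ckb (463 ± 123). In WT hearts it was Slc25a4 (67609 ± 9090, SD, n = 5), Ckm (31052 ± 4723), Ckmt2 (23242 ± 2779), Ak1 (3596 ± 250), Slc25a5 (3501 ± 312), Slc6a8 (750 ± 120) and Ckb (419 ± 107). Ckm and Ckmt2 changed places between KO and the other groups. Their ranges across libraries overlapped in all 3 groups, as did those of Ak1 and Slc25a5. Slc6a8 and Ckb overlapped in KO+AAV and KO hearts. As shares of the 3 creatine kinases per kb in the same library, Ckm was 33.5% to 48.8% and Ckmt2 49.8% to 63.7% in KO hearts. In WT hearts Ckm was 55.1% to 57.8% and Ckmt2 41.4% to 44.2%, and in KO+AAV hearts the shares overlapped. At 6 weeks Ckb was not the lowest: Slc25a4 (14316 ± 2107, n = 3) and Ckm (13489 ± 1064) led in KO hearts, and Ckm (22551 ± 8379, n = 3) and Slc25a4 (18100 ± 3727) in WT hearts, with Slc6a8 lowest in both (159 ± 33.4 in KO, 168 ± 29.4 in WT). The rank of Ckm rests on its length: with exons cut to the RefSeq bounds Ckm is 1.42 kb long, but all exons of GENCODE coding transcripts sum to 2.74 kb, and with that length, tried after the data had been seen, Ckm (16024) lies below Ckmt2 (23242) in WT hearts at 6 months too.

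The muscle isoform of creatine kinase fell the most of the 7 members in KO hearts at 6 months. Ckm had 13372, 17892, 20609, 15579 and 8881 normalised counts in the 5 KO libraries, against 53344, 36675, 40796, 40761 and 48117 in the 5 WT libraries. Every KO library lay below every WT library, and KO 5 was the lowest of all. Ckm fell to 34.8% of its WT mean, with a log2 change of -1.57 (SE 0.206; limma, adjusted p = 0.000108). Without KO 1 and KO 5 the log2 change was -1.28 (adjusted p = 0.000561).

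The mitochondrial isoform fell less. Ckmt2 had 18865, 23302, 22115, 22407 and 17727 normalised counts in KO libraries, against 40174, 30877, 33697, 30679 and 37261 in WT libraries. The groups did not overlap, and the log2 change was -0.73 (SE 0.149; limma, adjusted p = 0.00341), or -0.60 without KO 1 and KO 5 (adjusted p = 0.0293). The brain isoform did not pass the test. Ckb had 961, 580, 602, 507 and 754 normalised counts in KO libraries, against 639, 494, 498, 577 and 878 in WT libraries. The groups overlapped, KO 1 and WT 5 were the high libraries, and the log2 difference was 0.14 with a 95% interval of -0.27 to 0.54 (limma, adjusted p = 0.713). Its direction turned without KO 1 and KO 5, to -0.10 (adjusted p = 0.775).

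Of the 2 ADP/ATP carriers, the muscle form fell further. Slc25a4 had 51423, 49816, 49089, 45093 and 45576 normalised counts in KO libraries, against 96717, 74449, 80464, 95164 and 103486 in WT libraries. KO libraries lay close together and none reached the lowest WT library; the log2 change was -0.89 (SE 0.174; limma, adjusted p = 0.00241), and -0.90 without KO 1 and KO 5 (adjusted p = 0.0113). With no filter on low values its adjusted p was 0.0603. Slc25a5 had 3010, 3457, 3369, 3178 and 3320 normalised counts in KO libraries, against 4976, 4082, 4437, 4159 and 4052 in WT libraries. These groups did not overlap either, and the log2 change was -0.41 (SE 0.116; limma, adjusted p = 0.0252). That call was not stable: it was lost without KO 1 (adjusted p = 0.054), KO 4 (0.0505), KO 5 (0.0513), WT 1 (0.0719) or WT 3 (0.054), without both KO 1 and KO 5 (0.0976), and when libraries were brought to equal totals (0.165) or quantile-normalised (0.177), with the log2 difference between -0.25 and -0.41 throughout. Slc25a5 is X-linked and the KO libraries were all male. Among male libraries alone its log2 difference was -0.46 (adjusted p = 0.0683). With all libraries and a term for sex in the model it was -0.41 (limma, adjusted p = 0.0464).

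Slc25a4 lies on the chromosome that carries the targeted gene. On GRCm38, 379 kb separate the end of Sorbs2 from Slc25a4, and 7 genes that begin between them were tested. Of 18 genes tested within 1 Mb of Sorbs2, Slc25a4 was the only gene lower in KO than in WT hearts at 6 months by limma, and Fat1 (log2 change 1.40, adjusted p = 3.29e-05) and 1700029J07Rik (1.38, adjusted p = 0.0339) were higher. Whether the targeted locus has a part in the level of Slc25a4 was not tested.

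Ak1 and Slc6a8 did not pass the test. Ak1 had 5063, 6944, 6768, 7620 and 5496 normalised counts in KO libraries, against 9542, 8175, 8226, 8181 and 8331 in WT libraries. Every KO library lay below every WT library, yet the log2 difference of -0.43 (SE 0.144) had an adjusted p of 0.0548 in limma. Without KO 1 and KO 5 the log2 difference was -0.26 (adjusted p = 0.285), and without KO 4 the adjusted p was 0.0369. With equal totals the log2 difference was -0.27 (adjusted p = 0.188), and with quantile normalisation -0.21 (adjusted p = 0.367). Ak1 was called in 4 of 27 alternatives. Slc6a8 had 2388, 3307, 3305, 3675 and 2707 normalised counts in KO libraries, against 3795, 3238, 3082, 2551 and 2683 in WT libraries. The groups overlapped almost wholly, and the 95% interval of the log2 difference ran from -0.35 to 0.35; without KO 1 and KO 5 the difference was 0.17 (adjusted p = 0.578). KO 1 and KO 5, the KO libraries with the most Sorbs2 RNA, were the 2 lowest KO libraries for Ckm, Ckmt2, Ak1 and Slc6a8 and the 2 highest for Ckb.

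**Figure D1:**
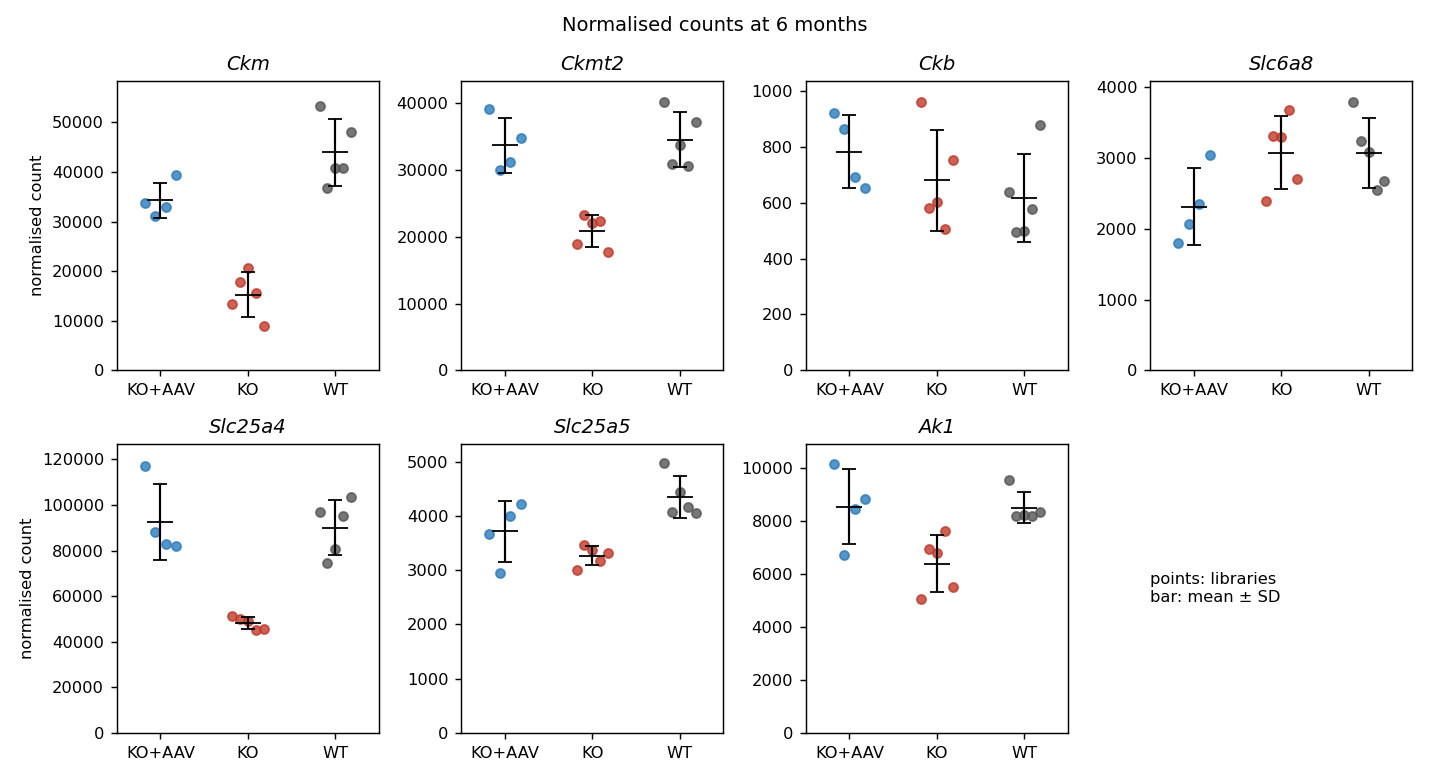
Normalised counts (vertical axes, from 0) of the 7 genes in KO+AAV (n = 4), KO (n = 5) and WT (n = 5) hearts at 6 months; points are libraries and bars are mean ± SD. Ckm, Ckmt2 and Slc25a4 are lower in KO than in both other groups without overlap, whereas Ckb and Slc6a8 overlap.

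In all, 4 of 7 members passed at an adjusted p under 0.05 in KO against WT at 6 months, all 4 of them lower. Among the 13419 genes tested, 16.3% passed in either direction and 8.18% passed as lower. The groups did not overlap for 5 of 7 members, against 13.8% of all genes tested. The median log2 change of the members was -0.43, beside 0.0023 over all genes. Overlap was counted on the values as deposited, where KO libraries had lower totals than WT libraries. When libraries were brought to equal totals, the log2 changes were smaller. They were -1.41 for Ckm, -0.57 for Ckmt2 and -0.74 for Slc25a4 (limma, adjusted p of 0.000232, 0.0116 and 0.00647).

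Ratios within a library do not depend on how libraries were scaled, and all 5 ratios examined shifted in KO hearts at 6 months. All but Slc25a5 to Slc25a4 contain Ckm, so their shifts share the fall of Ckm and are not separate results. Ckb amounted to 7.19%, 3.24%, 2.92%, 3.25% and 8.49% of Ckm in KO libraries, against 1.2%, 1.35%, 1.22%, 1.42% and 1.82% in WT libraries. Ckmt2 amounted to 107% to 200% of Ckm in KO libraries, against 75.3% to 84.2% in WT libraries, and Ak1 to 32.8% to 61.9% of Ckm in KO, against 17.3% to 22.3% in WT. Slc25a5 amounted to 5.85%, 6.94%, 6.86%, 7.05% and 7.28% of Slc25a4 in KO libraries, against 5.15%, 5.48%, 5.51%, 4.37% and 3.92% in WT libraries. The lowest WT values, 4.37% and 3.92%, came from the female libraries WT 4 and WT 5, while all KO libraries were male. Slc25a5 is X-linked, and no ratio is given by sex here. Ckm relative to Slc25a4 was 19.5% to 42% in KO and 42.8% to 55.2% in WT. None of these 5 ratios overlapped between KO and WT. The log2 differences were 1.71 for Ckb to Ckm, 0.84 for Ckmt2 to Ckm, 1.14 for Ak1 to Ckm, 0.48 for Slc25a5 to Slc25a4 and -0.68 for Ckm to Slc25a4; each had an exact two-sided permutation p of 0.00794, the smallest that 5 against 5 libraries allow, and an adjusted p of 0.0317 over the 20 ratio tests made. Without KO 1 and KO 5, a setting added after the data had been seen, the 5 ratios still did not overlap, with log2 differences of 1.18 for Ckb to Ckm, 0.68 for Ckmt2 to Ckm, 1.03 for Ak1 to Ckm, 0.52 for Slc25a5 to Slc25a4 and -0.38 for Ckm to Slc25a4. Each then had an exact permutation p of 0.0357, the smallest that 3 against 5 libraries allow, and an adjusted p of 0.0714 over 10 tests. No ratio could have passed after adjustment in that setting. Per length, Ckm made up 41.9% ± 5.53 of the creatine kinase RNA of the 3 isoforms in KO hearts, against 56.7% ± 1.26 in WT hearts (SD, n = 5 each), and Ckb 1.93% ± 0.797 against 0.764% ± 0.142; with the longer GENCODE exons of Ckm, its shares were 27.2% in KO and 40.3% in WT.

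**Figure D2:**
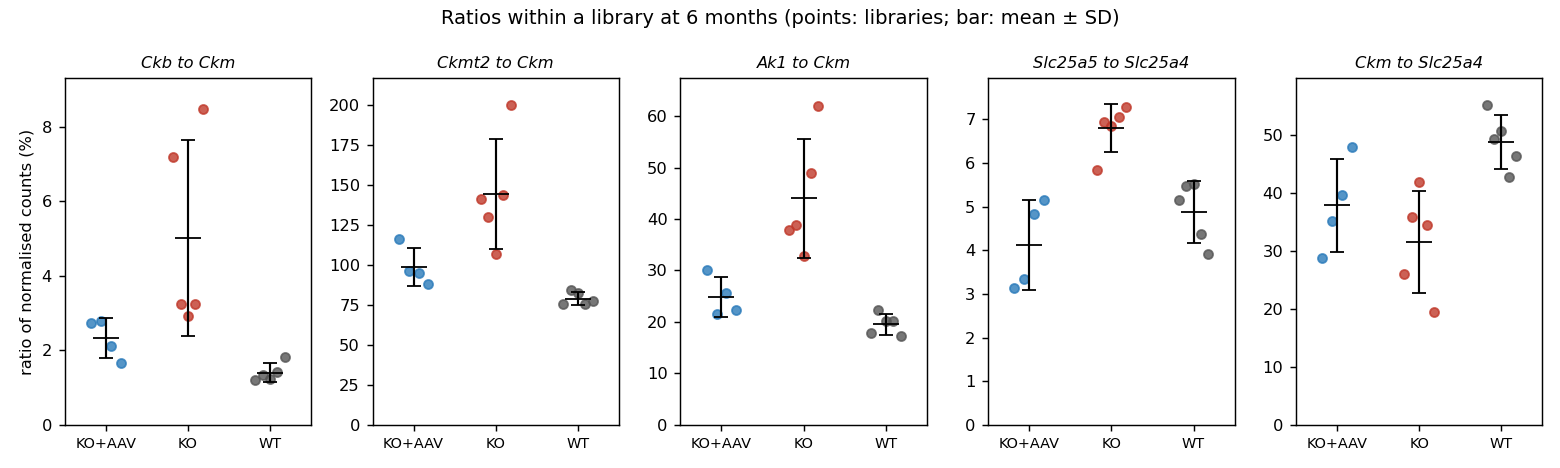
Ratios of normalised counts within a library, in percent (vertical axes, from 0), in KO+AAV (n = 4), KO (n = 5) and WT (n = 5) hearts at 6 months; points are libraries and bars are mean ± SD. For each of the 5 ratios the KO libraries do not overlap the WT libraries.

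Markers of heart muscle cells and of several other cell types also differed between KO and WT hearts, in both directions. In bulk tissue, fewer cells of a type and less RNA per cell cannot be told apart. The 10 cardiomyocyte markers summed to 885926 to 1116663 normalised counts in KO hearts at 6 months, against 1417081 to 1757478 in WT hearts; 3 of 10 were called lower, with a median log2 change of -0.60, and none was near 0 in any library. Of 10 fibroblast markers 6 were called higher, with sums of 42930 to 59357 in KO and 30599 to 45639 in WT hearts. Of 7 skeletal muscle markers, 4 stayed under 10 in every KO and every WT library, and the list summed to 23.4 to 75.4 in KO and 31.2 to 85.7 in WT, a list included because Ckm is abundant in skeletal muscle. Schwann cell markers summed to 117 to 236 in KO and 238 to 355 in WT hearts, and 2 of 5 tested, Mbp and Gfra3, were called lower. Smooth muscle and pericyte markers summed to 6469 to 7516 in KO and 8054 to 12072 in WT, with Acta2 called lower (log2 change -1.26, adjusted p = 0.000248) and Cspg4 higher (1.2, adjusted p = 3.29e-05). In the skeletal muscle list Tnni2 and in the atrial list Stk39 were called lower. No marker of endothelium (0 of 10), macrophages (0 of 7) or erythroid cells (0 of 5) was called by limma. The part of cell numbers in these results was not tested. Set against the mean of the 10 cardiomyocyte markers in the same library, Ckm remained 0.95 lower (log2) in KO than in WT hearts without overlap, at -2.92 to -1.80 in KO and -1.47 to -1.17 in WT (exact permutation p = 0.00794, adjusted p = 0.0741 over 28 such tests). Slc25a4 was 0.28 lower with overlap (log2 difference -0.28, exact p = 0.0159, adjusted p = 0.0741), and for Ckmt2 the difference was -0.11 (exact p = 0.198, adjusted p = 0.329). Relative to the markers, Slc6a8 stood 0.61 higher without overlap (exact p = 0.00794, adjusted p = 0.0741) and Ckb 0.75 higher with overlap (exact p = 0.0159, adjusted p = 0.0741). The levels of Slc6a8 and Ckb themselves differed by 0.0 and 0.14 (log2), while the markers were lower. No member passed this test after adjustment, for which the lowest adjusted p was 0.0741. The number of libraries sets a floor to an exact p, 0.00794 for KO against WT at 6 months. Over 28 tests, 1 member at that floor could not pass alone, so the test could not decide on single members. The marker-relative differences without KO 1 and KO 5 were -0.72 for Ckm, -0.04 for Ckmt2, -0.34 for Slc25a4, 0.73 for Slc6a8 and 0.46 for Ckb, with a lowest adjusted p of 0.114 over 14 tests. With 3 KO libraries left, no member could have passed in that setting.

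**Figure D3:**
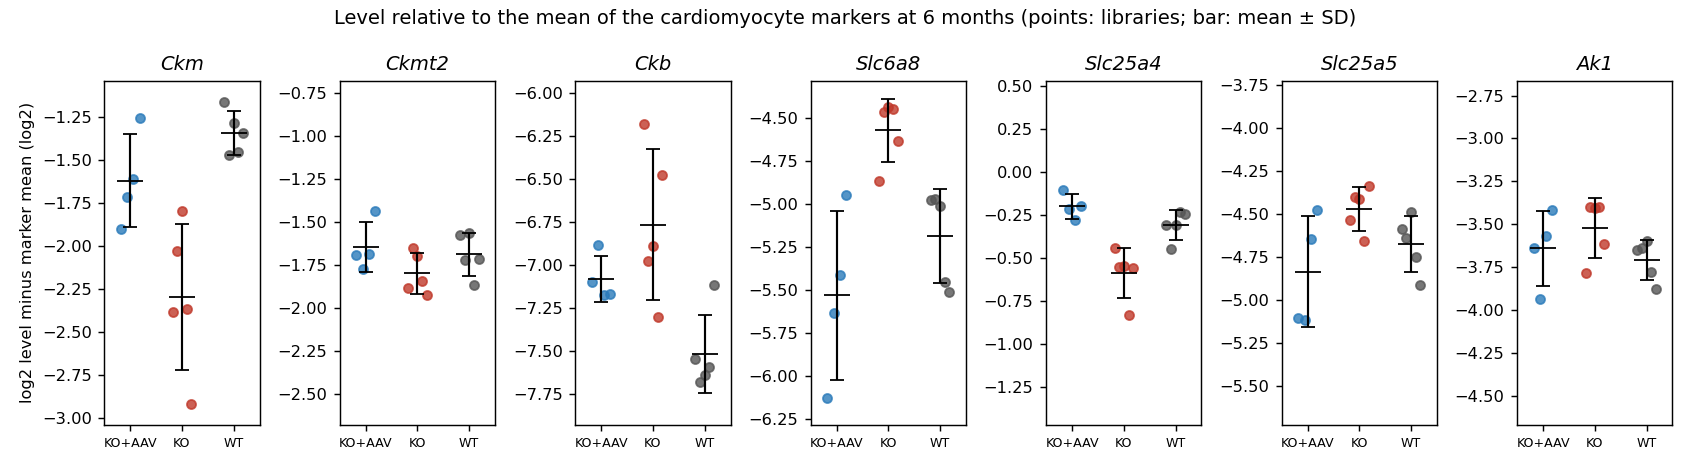
Log2 level of each gene minus the mean log2 level of the 10 cardiomyocyte markers in the same library (vertical axes, each spanning the same log2 range) in KO+AAV (n = 4), KO (n = 5) and WT (n = 5) hearts at 6 months; points are libraries and bars are mean ± SD. Relative to the markers, Ckm is lower and Slc6a8 higher in KO than in WT hearts without overlap, and Ckmt2 overlaps.

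At 6 weeks no member passed in KO against WT. By limma 0 of 7 members had an adjusted p under 0.05, where 0.589% of 13242 genes passed. An unadjusted p under 0.05 was found for 1 of 7 members (Ckmt2), beside 2045 of the 13242 genes. Ckm had 20643, 17639 and 18980 normalised counts in KO libraries, against 43463, 32494 and 19773 in WT libraries. The 2 lower KO libraries lay below all WT libraries, the WT libraries spread widely, and the log2 difference was -0.67 with a 95% interval of -1.39 to 0.05 (limma, adjusted p = 0.355). Ckmt2 had 4829, 6968 and 4973 normalised counts in KO libraries, against 9831, 8410 and 6511 in WT libraries, a log2 difference of -0.56 (adjusted p = 0.304). Slc25a4 had 18499, 22117 and 16591 in KO and 29290, 23641 and 19395 in WT, a log2 difference of -0.33 (adjusted p = 0.605). The groups overlapped for all 7 members, where 21.2% of genes did not overlap, and the other 4 differed by -0.09 to 0.13. The ratio of Ckb to Ckm was higher in each KO library than in each WT library (log2 difference 0.69), as was that of Ak1 to Ckm (0.62) and of Slc25a5 to Slc25a4 (0.46); for these 3 the exact permutation p of 0.1 is the smallest that 3 against 3 libraries can give. Ckmt2 to Ckm (0.11, exact p = 0.6) and Ckm to Slc25a4 (-0.34, exact p = 0.3) overlapped. Cardiomyocyte markers summed to 412130 to 508628 in KO and 462691 to 728492 in WT hearts at 6 weeks, and fibroblast markers to 41389 to 47585 in KO and 31774 to 38461 in WT, with 0 of 10 called in either list by limma. Endothelial markers summed to 12513 to 14392 in KO and 9699 to 10415 in WT, with 0 of 10 called. Schwann cell markers summed to 935 to 1614 in KO and 571 to 663 in WT, and 1 of 6, Mbp, was called higher (log2 change 1.96, adjusted p = 0.0264); no marker of the other lists was called. The part of cell numbers at this age was not tested either. The log2 change at 6 months minus that at 6 weeks was -0.90 for Ckm (SE 0.388, unadjusted p = 0.0317, adjusted p = 0.22) and -0.54 for Slc25a5 (SE 0.219, unadjusted p = 0.0239, adjusted p = 0.191). No member passed in this comparison of ages, where 4.08% of 12709 genes did. Age cannot be told apart from other differences between the libraries of the 2 tables.

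**Figure D4:**
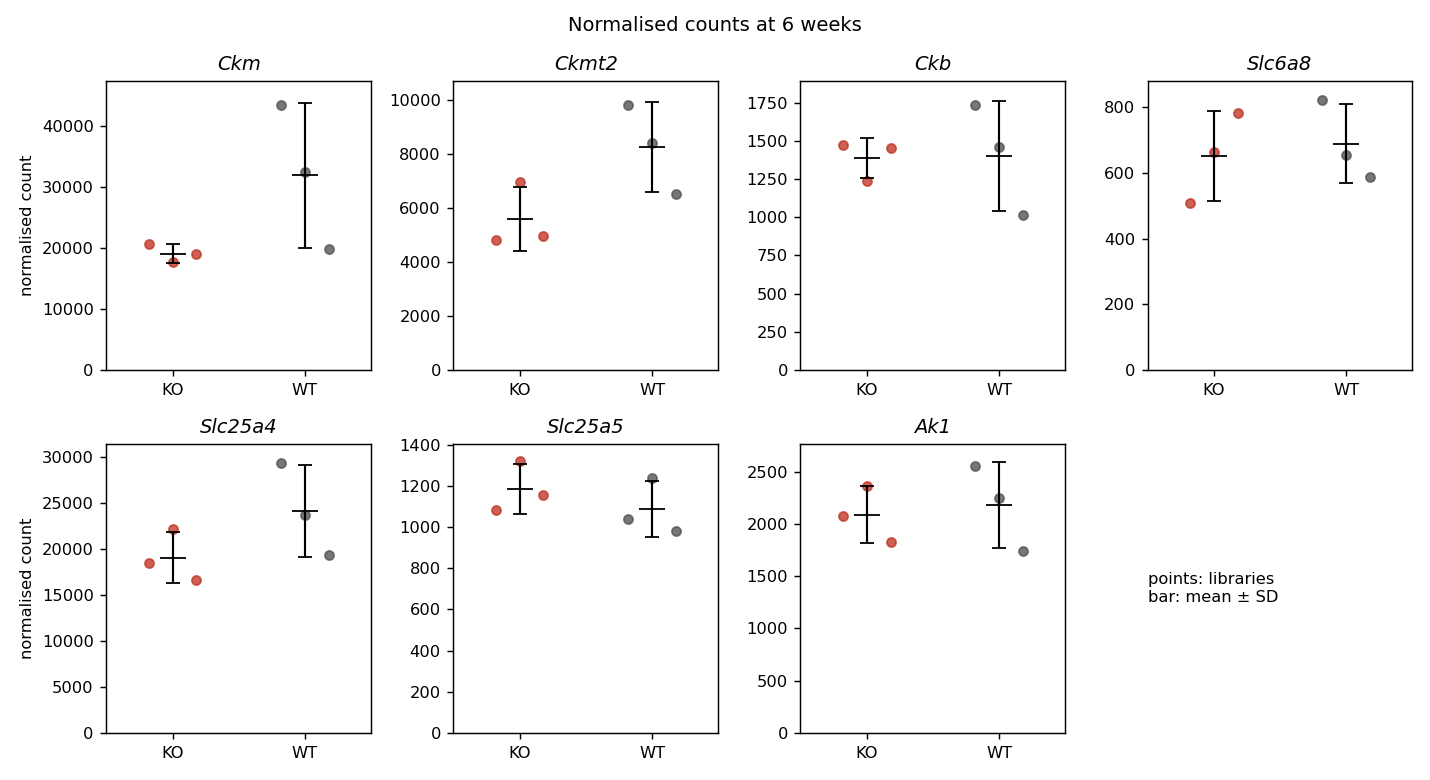
Normalised counts (vertical axes, from 0) of the 7 genes in KO (n = 3) and WT (n = 3) hearts at 6 weeks; points are libraries and bars are mean ± SD. All 7 genes overlap between the groups, and the WT libraries of Ckm range from 19773 to 43463.

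Hearts that had received Sorbs2 by vector held more of the muscle and mitochondrial creatine kinases and of the muscle ADP/ATP carrier than untreated KO hearts. Ckm had 33728, 31097, 32853 and 39415 normalised counts in KO+AAV libraries, all above the KO libraries listed before, with a log2 change of 1.22 (SE 0.219; limma, adjusted p = 0.00349). Ckmt2 had 39098, 29966, 31157 and 34790, a log2 change of 0.69 (SE 0.158; adjusted p = 0.0119). Slc25a4 had 117189, 88222, 82695 and 82052, a log2 change of 0.93 (SE 0.184; adjusted p = 0.00587). These 3 of 7 members passed, all higher, where 11.2% of all genes passed in either direction and 5.55% as higher. They were also the 3 whose groups did not overlap, against 14.1% of genes. Without KO 1 and KO 5 the log2 changes were 0.93 (adjusted p = 0.0147), 0.57 (0.0436) and 0.93 (0.0202). The call for Ckmt2 was lost without KO+AAV 1 (adjusted p = 0.051) and, with that for Slc25a4, when no filter was set on low values (0.0575 and 0.0804). Among male libraries alone, 2 KO+AAV against 5 KO, all 3 calls were lost (adjusted p of 0.0545 for Ckm, 0.125 for Ckmt2 and 0.0703 for Slc25a4, log2 differences 1.25, 0.64 and 0.82). With all libraries and a term for sex in the model, the 3 calls held (limma, log2 changes 1.22, 0.68 and 0.81, adjusted p of 0.0159, 0.0464 and 0.0321).

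The other 4 members did not pass in KO+AAV against KO. Ak1 had 10128, 6699, 8447 and 8825 normalised counts in KO+AAV libraries, a log2 difference of 0.42 (adjusted p = 0.0856), and KO+AAV 2 alone lay within the KO range. Slc25a5 had 3670, 2956, 4002 and 4225, with KO+AAV 2 below every KO library, and differed by 0.17 (adjusted p = 0.352). Slc6a8 had 1799, 2062, 2356 and 3047, 3 of 4 below every KO library, and differed by -0.42 (limma, adjusted p = 0.125). Its adjusted p was 0.0489 without KO 1 and KO 5 and 0.0461 without KO+AAV 4. Slc6a8 is X-linked, all KO libraries were male and 2 of 4 KO+AAV libraries were female. Among male libraries alone its difference was -0.28 (adjusted p = 0.481), and with a term for sex in the model -0.26 (adjusted p = 0.455). Ckb had 920, 865, 693 and 654 and differed by 0.22 (adjusted p = 0.467). For Ckb the difference without KO 1 and KO 5 was 0.46 (limma, adjusted p = 0.113), for Ak1 0.25 (0.251) and for Slc25a5 0.14 (0.488). Within a library, the ratios of Ckb to Ckm (log2 difference -0.99), Ak1 to Ckm (-0.80) and Slc25a5 to Slc25a4 (-0.75) were lower in KO+AAV than in KO hearts without overlap (exact permutation p = 0.0159, adjusted p = 0.0353 over 20 tests). Ckmt2 to Ckm (-0.52, exact p = 0.0317, adjusted p = 0.0529) and Ckm to Slc25a4 (0.29, exact p = 0.317, adjusted p = 0.334) overlapped and did not pass. Without KO 1 and KO 5 the differences were -0.47 for Ckb to Ckm, -0.68 for Ak1 to Ckm, -0.79 for Slc25a5 to Slc25a4, -0.36 for Ckmt2 to Ckm and -0.002 for Ckm to Slc25a4. The 3 that had passed still did not overlap, at an exact permutation p of 0.0571, the smallest that 4 against 3 libraries allow. The cardiomyocyte markers summed to 1300155 to 1970096 in KO+AAV hearts, above the KO range, and 2 of 10 were called higher; fibroblast markers summed to 32472 to 43761 in KO+AAV hearts, and 4 of 10 were called lower than in KO. Relative to these markers, Slc25a4 was 0.39 higher (log2) in KO+AAV than in KO hearts without overlap, and Slc6a8 differed by -0.96 without overlap (exact permutation p = 0.0159, adjusted p = 0.0741 for each). With overlap, Ckm differed by 0.68 (exact p = 0.0317, adjusted p = 0.127), Ckmt2 by 0.15 (exact p = 0.127, adjusted p = 0.237), Ckb by -0.32, Slc25a5 by -0.37 and Ak1 by -0.12. These differences without KO 1 and KO 5 were 0.44 for Ckm, 0.08 for Ckmt2, 0.45 for Slc25a4 and -1.08 for Slc6a8. Neither these marker-relative levels nor the ratios are given by sex here.

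Against WT hearts, 0 of 7 members passed in KO+AAV hearts by limma, where 1.33% of genes passed after adjustment. An unadjusted p under 0.05 was found for 1 of 7 members (Slc6a8), beside 2454 of 13419 genes. All 7 overlapped, against 5.4% of genes without overlap. Ckm stood at 78% of its WT mean in KO+AAV hearts, with 3 of 4 libraries below every WT library and a 95% interval of -0.82 to 0.11 around a log2 difference of -0.35 (adjusted p = 0.383). The differences were -0.03 (95% interval -0.37 to 0.30) for Ckmt2 and 0.03 (-0.36 to 0.43) for Slc25a4. For Slc6a8 the difference was -0.42 (-0.79 to -0.05, adjusted p = 0.232). The ratio of Ckmt2 to Ckm was 88.3% to 116% in KO+AAV libraries and 75.3% to 84.2% in WT libraries, without overlap (log2 difference 0.32, exact permutation p = 0.0159, adjusted p = 0.0353). The other 4 ratios overlapped and did not pass, at 0.71 for Ckb to Ckm (adjusted p = 0.0529), 0.34 for Ak1 to Ckm (0.0529), -0.27 for Slc25a5 to Slc25a4 (0.261) and -0.39 for Ckm to Slc25a4 (0.0733), all by exact permutation. Since the comparisons with KO and with WT use the same KO+AAV libraries, and KO libraries serve both knockout and vector comparisons, their results are not independent.

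**Figure D5:**
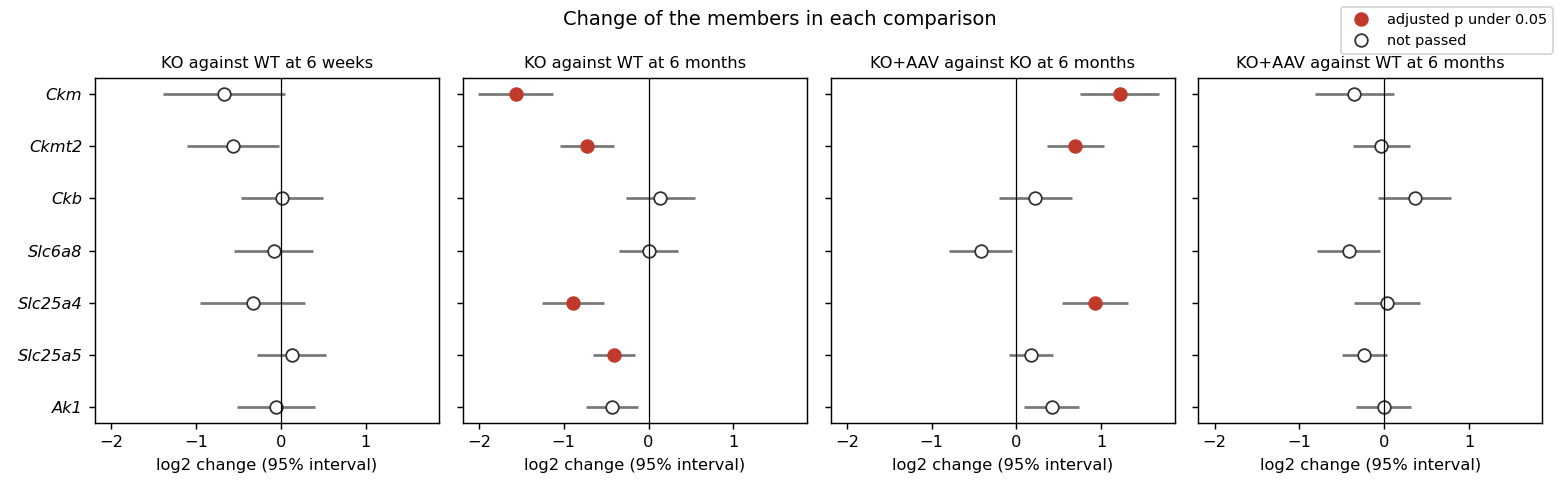
Log2 change of each gene in the 4 comparisons (horizontal axes, with 95% intervals); filled points have an adjusted p under 0.05 in limma and open points do not. In KO against WT at 6 months 4 genes pass, all lower, and in KO+AAV against KO 3 pass, all higher.

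Other genes of phosphate transfer were described by lists chosen with earlier results in view. Among creatine synthesis and transport genes, 1 of 3 tested was lower in KO than in WT hearts at 6 months (median log2 change -0.66, beside 0.0023 over all genes). It was Gatm, the enzyme of the opening step of creatine synthesis (45.5 ± 9.88 normalised counts in KO, 73.6 ± 17.6 in WT, SD, n = 5 each; log2 change -0.68, adjusted p = 0.0406), while Gamt, which completes the synthesis, differed by -0.66 (adjusted p = 0.125) and Slc16a12, a creatine transporter, by -0.18 (adjusted p = 0.609). Of 10 mitochondrial carriers and pores, 4 were lower and 1 higher (median -0.45). Slc25a3, the phosphate carrier, fell to 9682 ± 970 in KO, against 17578 ± 1609 in WT (log2 change -0.86, adjusted p = 0.000362). Slc25a42, a carrier of coenzyme A, fell by 0.88 on the log2 scale (adjusted p = 0.00389), and the outer-membrane pores Vdac3 and Vdac2 by 0.50 (0.0173) and 0.45 (0.0201). Slc25a23, an ATP-magnesium/phosphate carrier, rose by 0.51 (adjusted p = 0.0187).

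Of 6 nucleoside diphosphate kinases, 2 were lower (median -0.28), Nme3 (log2 change -0.90, adjusted p = 0.0133) and Nme4 (-0.59, adjusted p = 0.0377), and Nme1 differed by 0.38 (adjusted p = 0.314). Of 11 genes of AMP sensing and breakdown, 3 were higher and 2 lower (median 0.13). Among subunits of AMP-activated protein kinase, Prkab1 had 298 ± 29.9 in KO against 605 ± 55.8 in WT hearts (log2 change -1.02, adjusted p = 5.35e-05), and its relative Prkab2 had 1052 ± 169 against 511 ± 176 (log2 change 1.10, adjusted p = 0.00558). Prkag1 fell by 0.46 (adjusted p = 0.00339) and Prkag3 rose by 1.12 (adjusted p = 0.0306). Nt5e, the ectoenzyme that turns AMP into adenosine, rose by 1.25 (adjusted p = 0.00212). Of 12 regulators of mitochondrial and energy genes, 3 were lower (median -0.14): the coactivator Ppargc1a (1079 ± 129 in KO, 2363 ± 908 in WT; adjusted p = 0.00728) and the nuclear receptors Ppara (-0.70, adjusted p = 0.0251) and Esrra (-0.39, adjusted p = 0.0305). Of 4 ATP-using partners of creatine kinase (median -0.56), the slow myosin heavy chain Myh7 rose by 3.32 (adjusted p = 6.97e-05), the fast Myh6 fell by 1.19 (adjusted p = 0.0126) and the calcium pump Atp2a2 differed by -0.70 (adjusted p = 0.282).

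In KO+AAV against KO hearts, these lists gave higher Slc25a3 (log2 change 0.69, adjusted p = 0.00607), Slc25a42 (0.87, adjusted p = 0.0109), Prkab1 (0.64, adjusted p = 0.00655), Prkag1 (0.41, adjusted p = 0.0172) and Esrra (0.52, adjusted p = 0.0131). They gave lower Prkab2 (-1.26, adjusted p = 0.00652), Nt5e (-0.93, adjusted p = 0.0292) and Myh7 (-2.46, adjusted p = 0.00349). At 6 weeks Myh7 was the only gene of these lists that passed in KO against WT (3.31, adjusted p = 0.00791), and in KO+AAV against WT it was Gatm, at 36.4 ± 8.67 in KO+AAV (n = 4) and 73.6 ± 17.6 in WT hearts (n = 5).

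Across the 14 libraries at 6 months, genes close in pattern to Ckm by Pearson's r of log2 values were Eno3, Decr1, Kcnip2 and Tango2 (r of 0.971 to 0.981, or 0.845 to 0.871 after the group means were removed), among 9222 genes with a mean of at least 100. Ckmt2 ranked at place 30 (r = 0.951) and Slc25a4 at place 172 (r = 0.88). Those closest to Ckb were Cd3eap, Atox1, Lgals1, Ppib and Nsa2 (r of 0.949 to 0.966, or 0.943 to 0.979 after the group means were removed). The pattern of Ckb thus ran within the groups as much as across them, and Slc6a8 ran against it (r = -0.746, and -0.702 with group means removed). These values describe libraries of 1 table with a shared scaling and carry no test.

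Some reads could be assigned to more than 1 gene. Of the 100-base stretches of the coding transcripts, 11% for Ckb and 12.01% for Slc25a5 also occur in transcripts of other genes in GENCODE vM21. Gm12892 shared the most with Ckb, and Gm5560 the most with Slc25a5. How the authors' counting treated shared reads is not known, and the effect on these levels was not measured. On the opposite strand, A930016O22Rik overlaps 16.5% of the GENCODE exon length of Ckm and 1700119I11Rik overlaps 5.65% of that of Ckmt2. For Ckm this length is 2.74 kb, not the 1.42 kb used for its level per kb. A930016O22Rik had 0 to 8.73 normalised counts at 6 months and 15.3 to 53.2 at 6 weeks. The libraries were stranded, but the strand setting of the authors' counting is not stated in the sources used here.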

How the data were processed

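Each age has 1 table in which the authors deposited normalised counts, a signal per gene that the authors scaled within that table; the values are fractional and never negative. Per the labels' protocols, stranded libraries were made from poly(A) RNA (integrity number above 9) and read as 150 bp pairs. The genome build was mm10, per the submitters' processing notes; which aligner, counter and annotation were used is not stated in the labels. Columns of the 6-week table could be matched to groups but not to single samples. Members and gene lists were chosen with earlier results of these data known. Named genes were the members, Sorbs2, and in each list the 3 genes of smallest p in KO against WT at 6 months, plus called genes where a count was 5 or fewer. Some results under this rule are not reported here.

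Values were tested as log2(value + 1) with limma 3.58.1 (R 4.3.3; mean-variance trend, 3 groups in 1 model at 6 months), two-sided, for genes at 10 or more in at least 3 libraries at 6 weeks or 4 at 6 months. P-values were adjusted after Benjamini and Hochberg over all genes tested, with a threshold of 0.05. Fold changes are on that log2 scale. Ratios and marker-relative levels were tested by exact permutation, two-sided (scipy 1.17.1). The difference between ages was set against the combined standard error. The procedure was tested on simulated data. Exon lengths and overlaps came from GENCODE vM21, and gene bounds and promoters from RefSeq (GRCm38.p6). Alternatives varied the pseudocount, filter, scaling, variance model, sex term and libraries.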

Additional observations from a re-analysis of the deposited data

Results flagged for a closer look

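Library WT 1 held the highest Ak1 value of the 5 WT libraries at 6 months, at 9542 normalised counts, far from the other 4, which lay between 8175 and 8331. Its gap to the nearest library was 0.886 of the group's range, above Dixon's 95% critical value of 0.71. Of 21 groups of 4 or 5 libraries examined, this was the only such case, and chance gives about 1 in 20.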

How the results depend on the processing

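Ckm and Ckmt2 were called lower in KO against WT at 6 months under each of 27 alternatives. The count of members called was 3 to 5 there when single libraries were left out, 2 to 4 in KO+AAV against KO, and 0 at 6 weeks and in KO+AAV against WT. Of the ratios, Ckmt2 to Ckm in KO+AAV against KO and, in KO+AAV against WT, Ckb, Ak1 and Slc25a4 set against Ckm crossed an unadjusted exact p of 0.05 without single libraries, with unchanged direction.

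In KO+AAV against KO, 1 member passed with no filter on low values, 6 with array weights and 0 among male libraries alone; with no filter Slc25a4 also lost its call in KO against WT at 6 months (adjusted p = 0.0603). At 6 weeks 1 member, Ckm, passed with array weights (adjusted p = 0.0402).

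Counts of all genes called moved more. At 6 weeks, 78 genes were called, against 36 with equal totals, 12 with no variance trend, 2371 with array weights, 189 with a sex term, 505 among male libraries alone and 7 to 154 when single libraries were left out. In KO against WT at 6 months, 2189 were called, 1381 without KO 1 and KO 5, and 1520 to 2323 without single libraries. In KO+AAV against KO, 1509 were called, 3683 with array weights, 542 with a sex term, 332 among male libraries, and 571 to 1816 without single libraries. In KO+AAV against WT, 178 were called, 868 with array weights, 36 among male libraries, 102 with the 2 groups alone, and 108 to 472 without single libraries. For the difference between ages, 518 were called, and 205 to 585 without single libraries. The cause was not tested.

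Whether replicate numbers pair the groups at 6 months is not known. Among 13 same-number pairs, 7 had a correlation of deviations over 0.1 (range -0.391 to 0.253). Pairs of unlike number were not set beside them, so these values cannot decide it. With the number as a replicate block, 4, 3 and 0 members and 2071, 1764 and 183 genes were called in KO against WT, KO+AAV against KO and KO+AAV against WT. At 6 weeks no paired analysis was possible because the columns carry no replicate numbers. No result that passed its test, in the main setting or in the alternative, changed direction. Members that did not pass did: in KO against WT at 6 months Ckb in 1 of 27 alternatives (-0.10, without KO 1 and KO 5) and Slc6a8 in 7 (-0.14 to 0.17); at 6 weeks Ckb in 4 of 16 (-0.20 to 0.18), Slc6a8 in 5 (-0.23 to 0.22) and Ak1 in 4 (-0.21 to 0.07); and in KO+AAV against WT Ckmt2 in 4 of 27 (-0.11 to 0.04), Slc25a4 in 4 (-0.09 to 0.14) and Ak1 in 5 (-0.17 to 0.10). With 3 libraries a group at 6 weeks, exact tests cannot pass 0.05.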
